A study of Mus musculus with 8 samples.

Results

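Eukaryotic translation initiation factors of the eIF1, eIF2, eIF3 and eIF5 families were examined in pancreatic lymph nodes of mice lacking Deaf1, a transcription factor, set against wild-type littermates. The genes were chosen by name: all genes on the array whose name begins with Eif1, Eif2, Eif3, Eif5 or Eif6, with the kinases that phosphorylate eIF2 and a few further genes left out, and with the brightest probe standing for each gene. This gave 32 genes with 71 probes, and all 32 were among the 18417 genes that passed a filter on dim probes. The array carries old names, and 4 of the 32 genes (Eif2c1 to Eif2c4 there) are the Argonautes Ago1, Ago2, Ago3 and Ago4. Argonautes bind small RNAs and are not initiation factors, so counts are given for the 32 genes and for the 28 without them. No gene on the array is called Eif6. Through their accessions, 4 more initiation factor genes were found under older names (Eif6, Eif3m, Eif2d and Eif1ad), and they are reported apart.

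Pancreatic lymph nodes drain the pancreas and are a site where T cells meet pancreatic antigens. The Cy5 channel of each array held RNA of BALB/c mice without Deaf1 (knockout), 1 biological replicate to an array, of 4 weeks (2 arrays), 12 weeks (3 arrays) or 30 weeks (3 arrays). The Cy3 channel held a pool of wild-type BALB/c littermates of that age, of 2 mice at 4 weeks and 3 mice at 12 and 30 weeks. The labels name no treatment. No array had the dyes swapped, so dye bias of a probe is part of every ratio and cannot be told apart from genotype. No array held a single wild-type mouse, so the spread of wild-type mice is not in the tests. If arrays of an age share their pool, which the labels leave unsaid, p-values measure only the spread between knockout arrays. Values below are on the log2 scale, as knockout over wild-type pool after loess normalisation, where 1 is a doubling. A gene was called at an adjusted p under 0.05 in limma over all 18417 genes, with Benjamini-Hochberg adjustment. In whole nodes, a change in the number of cells of a type and a change of RNA per cell cannot be told apart.

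Initiation places a ribosome at the start codon of an mRNA. The small ribosomal subunit is held open for scanning by eIF1, eIF1A and the large complex eIF3, while eIF2 brings the initiator tRNA together with GTP. eIF5 triggers GTP hydrolysis by eIF2, eIF2B recharges eIF2 with GTP, eIF5B joins the large subunit, and eIF6 keeps free large subunits from joining too early. eIF5A, despite its name, acts mainly in elongation and termination, and is the protein that carries the modified lysine hypusine. Lymphocytes raise their translation capacity when they are activated.

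The initiation factor genes did not share a direction in knockout nodes. Subunits of eIF3 differed in direction by their brightest probes: Eif3a, Eif3e and Eif3j1 were higher in knockout nodes, and Eif3d and Eif3i were lower. At 12 and 30 weeks the second probes of Eif3e (-0.30 and -0.42) and Eif3d (0.24 and 0.29) had the opposite sign. Those of Eif3a and Eif3j1 had the same sign. That of Eif3d is dim and listed under another transcript record than its brightest probe. Of genes outside eIF3, Eif2s2 was higher, and Eif2b5 and Eif5a were lower. The median ratio of the 32 genes was 0.06 at 4 weeks, 0.02 at 12 weeks and 0.07 at 30 weeks, next to 0.02, 0.02 and 0.03 over all genes. At 4 weeks 10 of the 32 rose and 4 fell, where 15.3% of all genes rose and 7.37% fell (22.7% in either direction). At 12 weeks 2 rose and 0 fell, against 1.24% and 1.37% of all genes (2.61% in either direction). At 30 weeks 8 rose and 10 fell, with 20.7% and 18.4% of all genes doing so (39% in either direction). Over the mean of the 3 ages 12 rose and 5 fell, beside 25.4% and 18.7% of all genes (44.1% in either direction). Without the Argonautes the counts higher and lower were 10 and 4 at 4 weeks, 2 and 0 at 12 weeks, 6 and 10 at 30 weeks, and 9 and 5 over the mean of the 3 ages, of 28. These genes are bright. Among the 11310 genes well above background in both channels on all 8 arrays, which hold 30 of the 32, the shares called in either direction were 33.3% at 4 weeks, 3.3% at 12 weeks and 49.2% at 30 weeks.

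**Figure D1:**
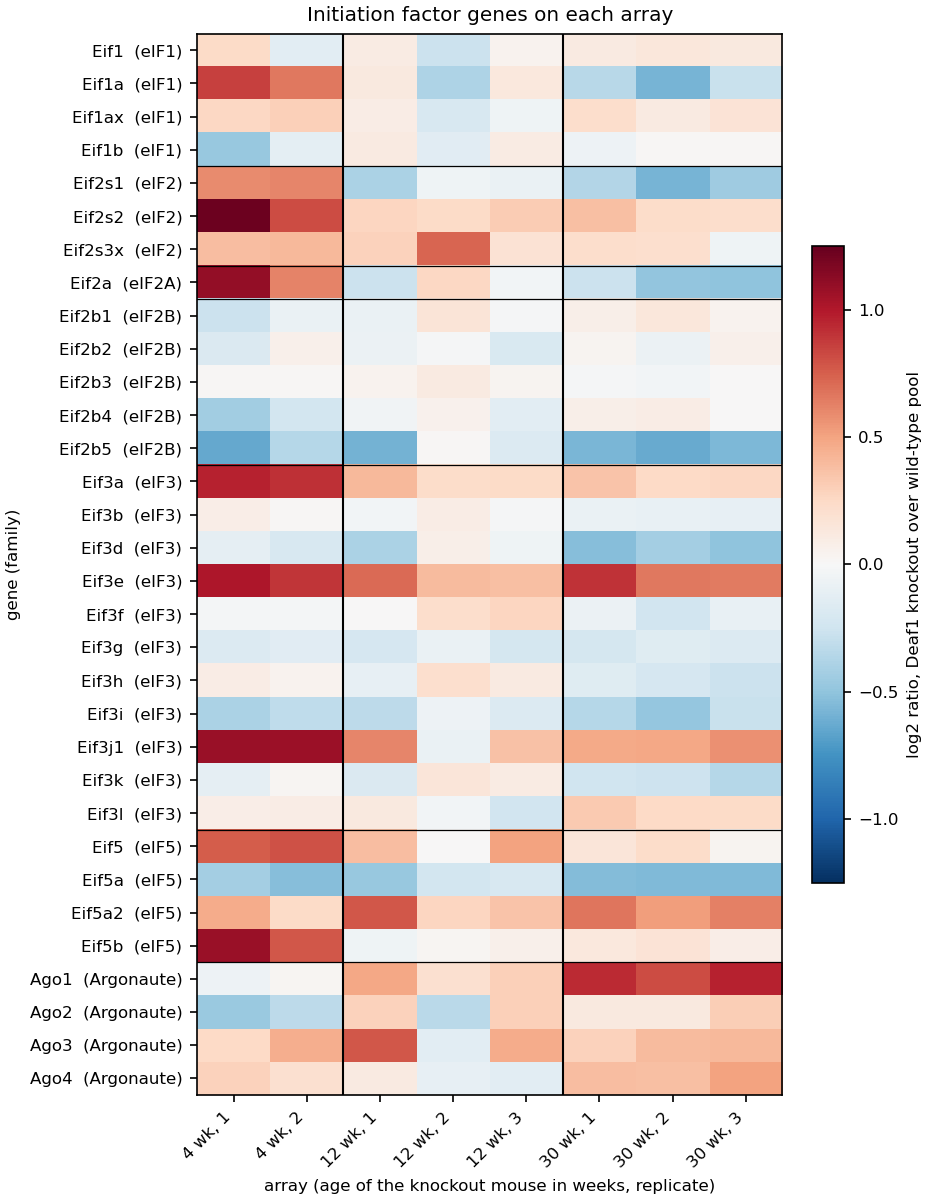
Log2 ratio of knockout over wild-type pool for the 32 genes (rows, by family) on the 8 arrays (columns, by age and replicate); red is higher and blue lower in the knockout. Eif2s2, Eif3a and Eif3e are above 0 on all 8 arrays, and Eif5a, Eif3g and Eif3i are below 0 on all 8.

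Several arrays stood apart. Over the 32 genes the ratios correlated at 0.95 between the 2 arrays of 4 weeks and at 0.80 between replicates 1 and 3 of 12 weeks, but at 0.20 and 0.25 between these and replicate 2 of 12 weeks; whether the arrays of an age share 1 pool is not in the labels. The same replicate 2 of 12 weeks had a ratio of 5.32 for Xist, which is made from the inactive X of females, and -3.89 for the Y-linked Ddx3y, where the other 7 arrays ran from -0.40 to 0.75 and from -0.21 to 0.91. The labels do not give sex. The log2 level of Xist in knockout channels was 13.43 and 14.15 at 4 weeks, 7.31, 12.92 and 7.88 at 12 weeks, and 13.35, 13.08 and 13.16 at 30 weeks. In wild-type pools it was 12.68 and 13.40 at 4 weeks, 7.71, 7.60 and 7.55 at 12 weeks, and 12.60, 12.62 and 12.61 at 30 weeks. Ddx3y was well above background on 2 knockout and 3 wild-type channels; at 12 weeks its log2 level was 10.08, 5.26 and 9.67 in knockout channels and 9.17, 9.15 and 9.05 in wild-type pools. The 12-week samples, other than knockout replicate 2, thus had low Xist and high Ddx3y, as male tissue does, and the samples of 4 and 30 weeks had high Xist, so these transcripts differed between the ages as well as between the channels of 1 array of 12 weeks. The part of sex in the ratios, those of the X-linked Eif1ax and Eif2s3x among them, was not tested. The acinar marker list (9 of 10 measured) had medians of -1.87 and -0.53 at 4 weeks, -0.39, 0.23 and 0.68 at 12 weeks, and -4.32, 4.03 and -4.58 at 30 weeks. The fat cell list (8 of 8) had medians of -1.22 and -0.47 at 4 weeks, -1.45, -1.21 and -0.03 at 12 weeks, and -0.05, -0.29 and 0.26 at 30 weeks. B cell and T cell markers were measured for all 8 of the 8 genes in each list and stroma for 7 of 8. The B cell list had medians of 0.12 and 0.36 at 4 weeks (3 genes higher, 0 lower). Its medians were -0.35, 0.36 and -0.26 at 12 weeks (0 higher, 0 lower) and -0.23, -0.44 and -0.31 at 30 weeks (1 higher, 4 lower). The T cell list had 1 of 8 genes lower at 4 weeks, 1 higher at 12 weeks and 3 lower at 30 weeks. The plasma cell list (8 of 8) had 1 gene higher at 4 weeks, 1 higher at 12 weeks and 3 lower at 30 weeks. The cycling cell list (8 of 8) had medians of 0.18 and -0.13 at 4 weeks (2 higher, 0 lower). Its medians were 0.56, 0.36 and 0.22 at 12 weeks (0 higher, 0 lower) and 0.23, -0.02 and 0.02 at 30 weeks (2 higher, 1 lower). The stroma list had medians of 0.70 and 0.30 at 4 weeks (3 higher, 0 lower) and between -0.15 and 0.07 later (1 lower at 30 weeks). Of all genes, 15.3% rose and 7.37% fell at 4 weeks, 1.24% and 1.37% at 12 weeks, and 20.7% and 18.4% at 30 weeks. The part of cell composition in the results below was not tested. Deaf1 itself had mean ratios of -0.17 at 4 weeks, 0.34 at 12 weeks (limma adjusted p = 0.0343, lost in 4 of 8 fits with 1 array left out) and 0.10 at 30 weeks, and whether its probe lies in the deleted stretch is not known, so it does not check the labels.

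The probes are 60 bases long and each covers a short stretch of sequence. The 6 shown here were picked as examples of genes that were higher, lower or read differently by their probes. Each has at least 1 reading frame without a stop, as do 28 of the brightest probes of the 36 genes (the 32 and the 4 under older names). They are copied from the 4-week arrays' own files, with mm8 coordinates as those files give them, and no base is marked. The Eif3e and Eif3i probes span 4240 and 1520 bases of genome, so each crosses at least 1 intron, and the others lie in single exons. The Eif3e and Eif5a sequences belong to each gene's second probe, and the rest to the brightest.
Eif3e second probe (chr15:43108494-43112733, minus strand): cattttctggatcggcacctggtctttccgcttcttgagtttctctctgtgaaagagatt
Eif3i (chr4:129097686-129099205, minus strand): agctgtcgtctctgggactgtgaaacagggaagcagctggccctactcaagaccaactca
Eif5 (chr12:111987972-111988031, plus strand): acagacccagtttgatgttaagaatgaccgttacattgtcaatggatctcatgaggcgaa
Eif5b (chr1:37963812-37963871, plus strand): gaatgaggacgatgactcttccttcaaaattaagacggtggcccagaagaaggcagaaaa
Eif5a second probe (chr11:69734146-69734205, minus strand): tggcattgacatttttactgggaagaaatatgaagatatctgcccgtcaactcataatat
Eif2b5 (chr16:20420561-20420620, plus strand): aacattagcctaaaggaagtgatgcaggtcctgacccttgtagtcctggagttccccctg

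eIF1 and eIF1A sit on the small subunit during scanning and guard start codon choice. Eif1a, an autosomal eIF1A gene, had ratios of 0.85 and 0.66 at 4 weeks, of 0.12, -0.39 and 0.13 at 12 weeks, and of -0.35, -0.58 and -0.28 at 30 weeks. It was thus higher on both 4-week arrays and lower on all 3 arrays of 30 weeks. It rose by 0.75 ± 0.13 (SE, n = 2) at 4 weeks (limma adjusted p = 0.00642) and fell by 0.41 ± 0.11 (n = 3) at 30 weeks (limma adjusted p = 0.0199). The first call was lost without replicate 1 of 4 weeks (0.66, limma adjusted p = 0.148), and the second without any 1 of the 3 arrays of 30 weeks (-0.47 to -0.32, limma adjusted p between 0.0534 and 0.107). Eif1ax, the X-linked eIF1A gene, had 0.26 and 0.30 at 4 weeks, 0.09, -0.20 and -0.05 at 12 weeks, and 0.22, 0.11 and 0.17 at 30 weeks. It was called at 4 weeks (0.28 ± 0.08, limma adjusted p = 0.0434) and over the mean of the 3 ages (0.13 ± 0.04, limma adjusted p = 0.0344). Each of these calls was lost in 6 of 8 fits with 1 array left out (0.26 to 0.30 and 0.11 to 0.14) and under 7 of 13 other settings, among them a correction for probe base composition (0.17 at 4 weeks). The second Eif1ax probe had means of 0.32, -0.03 and -0.35 at the 3 ages. With averaged probes the Eif1ax call over the mean of the 3 ages was lost. Eif1 and Eif1b, which encode closely related eIF1 proteins, were not called at any age, with means between -0.30 and 0.12.

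eIF2 is a trimer, and its subunits parted. Eif2s2, the beta subunit that contacts eIF5, was above 0 on all 8 arrays, with 1.23 and 0.82 at 4 weeks, 0.27, 0.24 and 0.32 at 12 weeks, and 0.38, 0.23 and 0.22 at 30 weeks. It rose 2.04-fold at 4 weeks (1.03 ± 0.10, limma adjusted p = 0.000675) and 1.21-fold at 30 weeks (0.28 ± 0.08, limma adjusted p = 0.0282). Corrected for probe base composition, the ratio at 30 weeks was 0.17 and not called. That call was also lost without any 1 of the 3 arrays of 30 weeks (0.23 to 0.31, limma adjusted p between 0.0705 and 0.16). Eif2s1, the alpha subunit whose phosphorylation slows initiation, had 0.59 and 0.61 at 4 weeks, -0.40, -0.05 and -0.08 at 12 weeks, and -0.37, -0.58 and -0.44 at 30 weeks. Like Eif1a, it was higher at the first age and lower at the last: 0.60 ± 0.10 (limma adjusted p = 0.0048) against -0.47 ± 0.08 (limma adjusted p = 0.00341). Without replicate 1 of 4 weeks it was 0.61 at that age and not called (limma adjusted p = 0.0889). Its second probe, further along chromosome 12, had means of 0.42, 0.46 and 0.27 at the 3 ages, so the fall at 30 weeks was seen with the brightest probe only.

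Eif2s3x, the X-linked gamma subunit that holds the initiator tRNA, had 0.39 and 0.41 at 4 weeks, 0.29, 0.73 and 0.18 at 12 weeks, and 0.22, 0.21 and -0.05 at 30 weeks. It was not called at any single age and was called over the mean of the 3 ages at 0.31 ± 0.07 (limma adjusted p = 0.00647). The high value of 0.73 is on the array that stood apart in Xist. On that array 1 other Eif2s3x probe read -1.95 and another read 0.57, while the probe at -1.95 read -0.14 and 0.06 on the other 12-week arrays. With its probes averaged, the ratio over the 3 ages was 0.00.

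Eif2a is not a subunit of eIF2 but a separate protein that can deliver initiator tRNA without GTP. It had 1.10 and 0.62 at 4 weeks, -0.27, 0.26 and -0.03 at 12 weeks, and -0.27, -0.49 and -0.50 at 30 weeks. It rose by 0.86 ± 0.15 at 4 weeks (limma adjusted p = 0.00517) and fell by 0.42 ± 0.12 at 30 weeks (limma adjusted p = 0.0233). Without replicate 1 of 4 weeks the first was 0.62 and not called (limma adjusted p = 0.138), and the second was not called without any 1 of the 3 arrays of 30 weeks (-0.50 to -0.38, limma adjusted p between 0.0514 and 0.119). Its second, dimmer probe was above 0 at all 3 ages, with means of 0.21, 0.23 and 0.37. The array lists that probe under another transcript record than the brightest one. The sign change with age was therefore read by the probes of Eif1a alike (second probe 0.22, -0.22 and -0.37), but by the brightest probe only for Eif2a and Eif2s1.

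**Figure D2:**
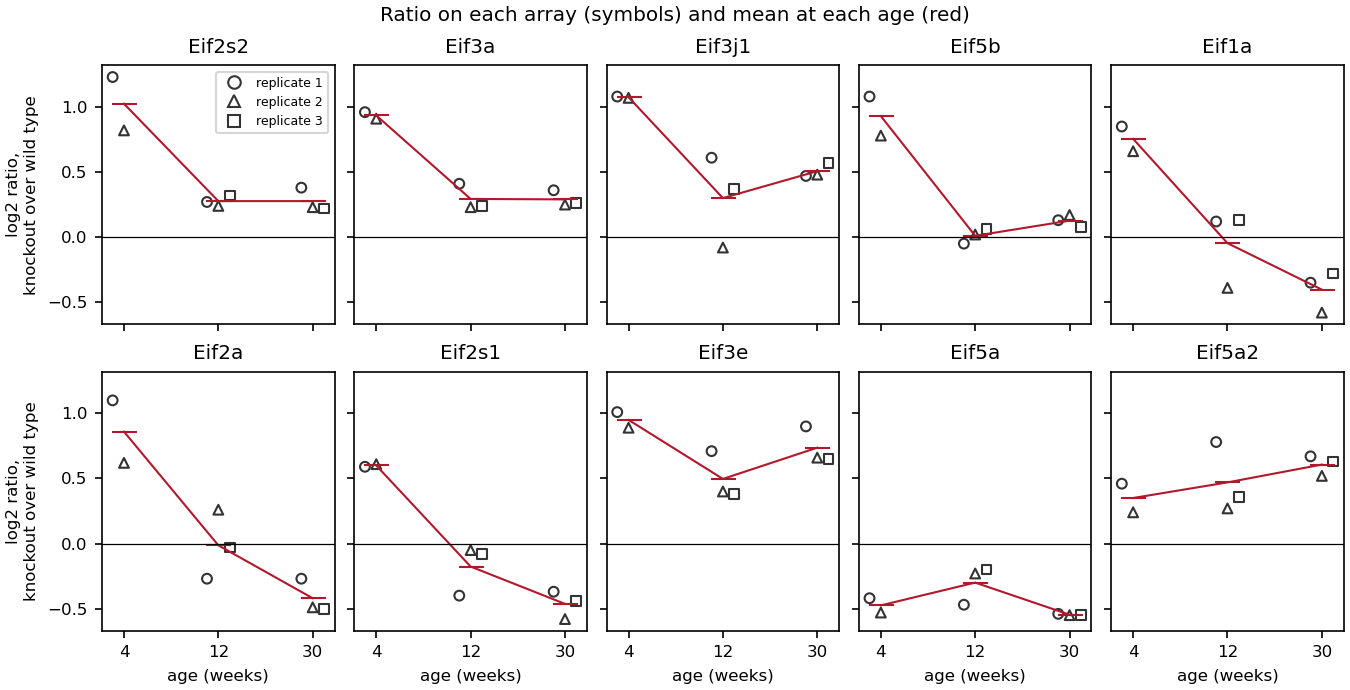
Log2 ratio of knockout over wild-type pool (vertical) for 10 genes on each array (open symbols by replicate) and mean at each age (red), with age in weeks along the bottom in equal steps. Eif1a, Eif2a and Eif2s1 lie above 0 at 4 weeks and below 0 at 30 weeks, while Eif3e and Eif5a2 lie above 0 and Eif5a below 0 on all 8 arrays.

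eIF2B is made of 5 subunits, and mutations in any of them cause a leukodystrophy in humans. Eif2b5, its catalytic subunit, had -0.64 and -0.36 at 4 weeks, -0.59, 0.01 and -0.17 at 12 weeks, and -0.57, -0.63 and -0.56 at 30 weeks, so only replicate 2 of 12 weeks was not below 0. It fell at 4 weeks (-0.50 ± 0.13, limma adjusted p = 0.0296) and at 30 weeks (-0.59 ± 0.11, 0.666-fold, limma adjusted p = 0.00418). Eif2b4, the delta subunit, fell at 4 weeks (-0.33 ± 0.08, limma adjusted p = 0.0222) and stood at 0.05 at 30 weeks. Corrected for probe base composition, Eif2b4 and Eif2b5 were no longer called at 4 weeks (-0.18 and -0.36). At 30 weeks Eif2b5 then kept its call (-0.45). Eif2b4 and Eif2b1 were called higher there (0.20 and 0.22, limma adjusted p = 0.0388 and 0.0205). The 4-week call of Eif2b4 was also lost without replicate 1 of 4 weeks (-0.23), and that of Eif2b5 without either array of 4 weeks or replicate 1 or 3 of 30 weeks (-0.64 to -0.36). Without the correction for probe base composition, Eif2b1 and Eif2b2, of the regulatory part, and Eif2b3, which pairs with Eif2b5, were not called at any age, with means between -0.17 and 0.08. Eif2b3 was dim: it was well above background on 0 of 2 knockout and 0 of 2 wild-type channels at 4 weeks, so no ratio is read there.

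eIF3 is the largest initiation complex, and 11 of its subunit genes were among the members. At 4 weeks 3 rose and 1 fell, where 22.7% of all genes were called, and at 30 weeks 4 rose and 5 fell, where 39% were. Eif3e, a subunit of the PCI and MPN core, was above 0 on all 8 arrays: 1.01 and 0.89 at 4 weeks, 0.71, 0.40 and 0.38 at 12 weeks, and 0.90, 0.66 and 0.65 at 30 weeks. It was called at all 3 ages, as Eif3a was, at 0.95 ± 0.11, 0.50 ± 0.09 and 0.74 ± 0.09, with limma adjusted p of 0.000932, 0.0342 and 0.00105. The 12-week call was lost in 6 of 8 fits with 1 array left out (0.39 to 0.56, limma adjusted p between 0.0504 and 0.136), among them those without replicate 1 or 3 of 12 weeks, and under 7 of 13 other settings. The second Eif3e probe, which lies upstream in the transcript (its sequence is above), read 1.23 and 0.94 at 4 weeks but -0.45, -0.28 and -0.17 at 12 weeks and -0.41, -0.42 and -0.44 at 30 weeks. Both probes were thus high at 4 weeks, and at 12 and 30 weeks they lay on opposite sides of 0 on all 6 arrays.

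Eif3a, the scaffold subunit on which the complex is built, had 0.96 and 0.91 at 4 weeks, 0.41, 0.23 and 0.24 at 12 weeks, and 0.36, 0.25 and 0.26 at 30 weeks. It rose 1.91-fold at 4 weeks (0.94 ± 0.08, limma adjusted p = 0.000442), 1.23-fold at 12 weeks (limma adjusted p = 0.0499) and 1.22-fold at 30 weeks (limma adjusted p = 0.00761). The 12-week call was lost in 7 of 8 fits with 1 array left out, all but that without replicate 2 of 12 weeks (0.24 to 0.32, limma adjusted p between 0.0692 and 0.18), and under 10 of 13 other settings, and the 30-week call was lost without replicate 1 of 30 weeks (0.25, limma adjusted p = 0.0633). Its second probe read alike, with means of 1.01, 0.11 and 0.37. Eif3j1, a loosely bound subunit that sits in the mRNA channel of the small subunit, had 1.08 and 1.07 at 4 weeks, 0.61, -0.08 and 0.37 at 12 weeks, and 0.47, 0.48 and 0.57 at 30 weeks. It rose 2.11-fold at 4 weeks (1.08 ± 0.14, limma adjusted p = 0.00164) and 1.42-fold at 30 weeks (0.51 ± 0.11, limma adjusted p = 0.00887). It was not called at 4 weeks without replicate 1 of that age (1.07, limma adjusted p = 0.0508) or at 30 weeks without replicate 3 of that age (0.48, limma adjusted p = 0.0577). All 3 of its probes were above 0 in the mean at each age, between 0.26 and 1.08. Eif3m, a core subunit outside the naming rule, had 0.70 and 0.61 at 4 weeks, 0.53, 0.30 and 0.23 at 12 weeks, and 0.81, 0.67 and 0.66 at 30 weeks, and was called at all 3 ages (limma adjusted p = 0.00223, 0.0475 and 0.000872). The Eif3m call at 12 weeks was lost in 7 of 8 fits with 1 array left out, all but that without replicate 2 of 12 weeks (0.26 to 0.41), and under 10 of 13 other settings, and that at 4 weeks without replicate 1 of 4 weeks (0.61, limma adjusted p = 0.0642).

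Other eIF3 subunits were lower. Eif3i, a propeller protein of the module with Eif3b and Eif3g, was below 0 on all 8 arrays: -0.40 and -0.32 at 4 weeks, -0.33, -0.06 and -0.17 at 12 weeks, and -0.36, -0.48 and -0.28 at 30 weeks. It fell by 0.36 ± 0.09 at 4 weeks (limma adjusted p = 0.0201) and by 0.37 ± 0.07 at 30 weeks (limma adjusted p = 0.00463). The 4-week call was lost without either array of 4 weeks (-0.40 and -0.32), with replicate number as a block, and after the correction for probe base composition (-0.20, limma adjusted p = 0.137). Eif3g, which binds RNA near the mRNA entry, was also below 0 on all 8 arrays and was called at 30 weeks (-0.18 ± 0.06, limma adjusted p = 0.0364). Eif3d, the subunit that can bind the mRNA cap, had -0.11 and -0.20 at 4 weeks, -0.40, 0.07 and -0.05 at 12 weeks, and -0.53, -0.42 and -0.50 at 30 weeks. It fell by 0.48 ± 0.09 at 30 weeks (limma adjusted p = 0.00404), where its dim second probe had a mean of 0.29. That probe is listed under another transcript record. Eif3h and Eif3k, of the PCI and MPN core, fell at 30 weeks (-0.21 ± 0.07 and -0.29 ± 0.08, limma adjusted p = 0.0455 and 0.0192), and Eif3l rose (0.27 ± 0.07, limma adjusted p = 0.0197). Eif3f was not called at any age. Eif3b was not called either, but its second probe read -0.42, -0.34 and -0.76 in the means of the 3 ages. After a correction for probe base composition, Eif3i, Eif3d and Eif3l kept their calls at 30 weeks (-0.23, -0.34 and 0.24), and Eif3g, Eif3h and Eif3k did not (-0.04, -0.14 and -0.15). The 30-week calls of Eif3g, Eif3h, Eif3k and Eif3l were lost without any 1 of the 3 arrays of 30 weeks, and Eif3g and Eif3h also without replicate 3 of 12 weeks and Eif3h without either array of 4 weeks (-0.19 to -0.16, -0.24 to -0.18, -0.31 to -0.25 and 0.24 to 0.29 in these fits).

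**Figure D3:**
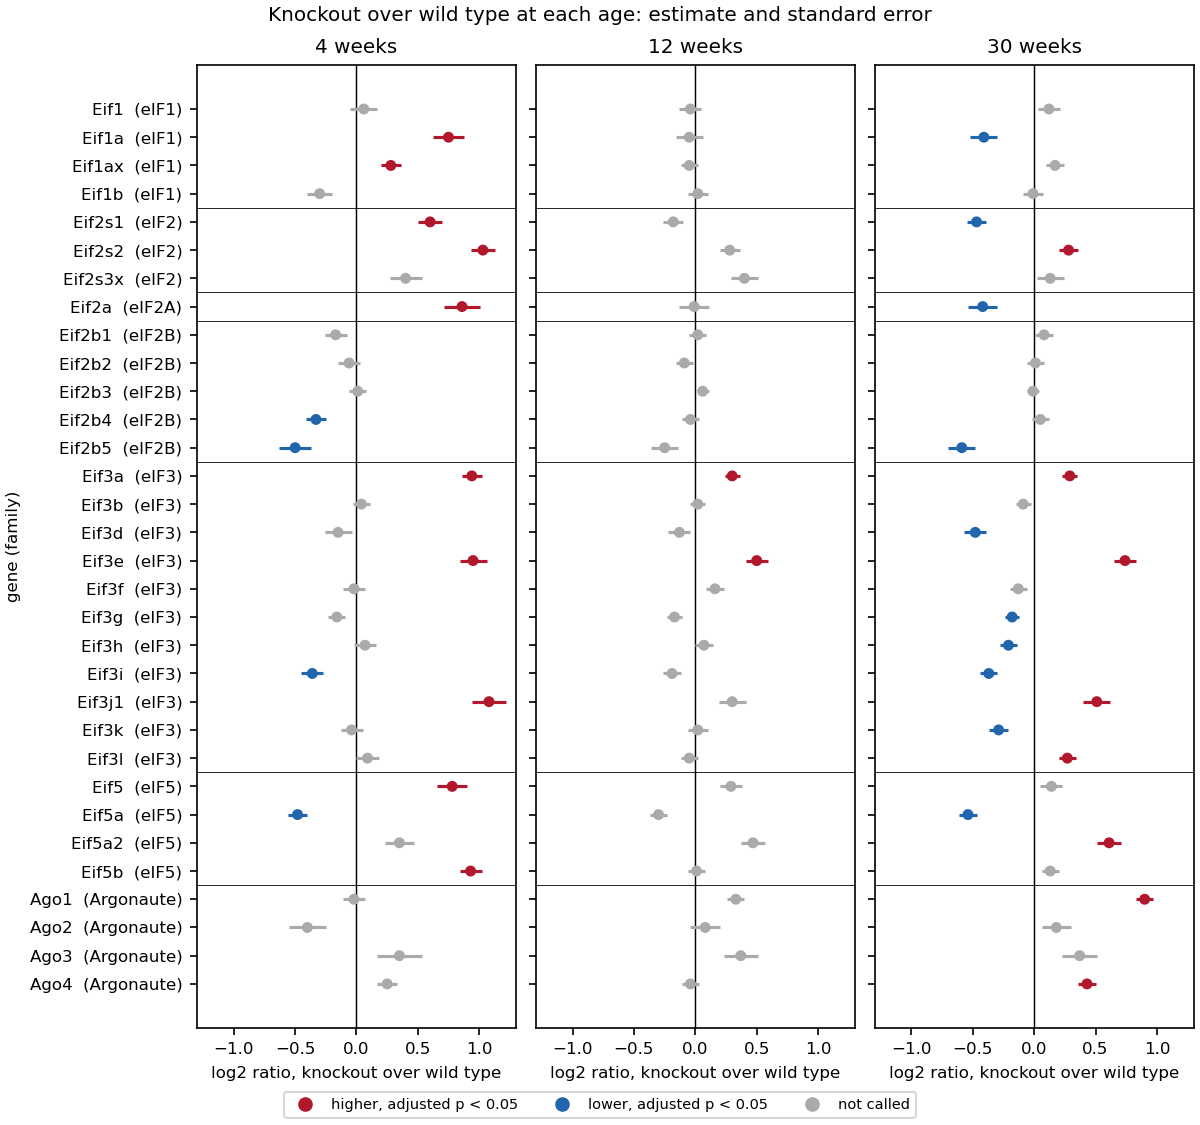
Estimate of the log2 ratio of knockout over wild type (dot) with its standard error (line) for each of the 32 genes at 4, 12 and 30 weeks; red was called higher, blue called lower and grey not called. Within eIF3, 4 genes are red and 5 blue at 30 weeks.

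Eif5 and Eif5b act at the last steps of initiation, and both were high at the youngest age. Eif5b had 1.08 and 0.78 at 4 weeks, -0.05, 0.02 and 0.06 at 12 weeks, and 0.13, 0.17 and 0.08 at 30 weeks. It rose 1.91-fold at 4 weeks (0.93 ± 0.09, limma adjusted p = 0.000521) and was not called at 12 or 30 weeks. Eif5 had 0.76 and 0.80 at 4 weeks, 0.39, 0.00 and 0.50 at 12 weeks, and 0.15, 0.23 and 0.03 at 30 weeks, and it rose 1.71-fold at 4 weeks (0.78 ± 0.12, limma adjusted p = 0.00312). Without replicate 1 of 4 weeks Eif5 was at 0.80 and not called (limma adjusted p = 0.0686). All 5 Eif5b probes were above 0 at 4 weeks, with means of 0.32 to 0.95. At 30 weeks they spread from -0.41 to 0.73, and the lowest and the highest are the ones nearest the 3′ end of the gene. The Eif5 probes were likewise all above 0 at 4 weeks (0.51 to 0.78) and ran from -0.60 to 0.61 at 30 weeks.

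The eIF5A paralogs moved in opposite directions. Eif5a, the widely expressed form, had -0.42 and -0.53 at 4 weeks, -0.47, -0.23 and -0.20 at 12 weeks, and -0.54, -0.55 and -0.55 at 30 weeks. Eif5a2, the form with narrower expression, had 0.46 and 0.24 at 4 weeks, 0.78, 0.27 and 0.36 at 12 weeks, and 0.67, 0.52 and 0.63 at 30 weeks. The first was below 0 and the second above 0 on all 8 arrays. Eif5a fell at 4 weeks (0.719-fold, limma adjusted p = 0.00625) and at 30 weeks (0.686-fold, limma adjusted p = 0.00125), and over the mean of the 3 ages (-0.44 ± 0.04, limma adjusted p = 0.000362). Its 4-week call was lost without either array of that age (-0.53 and -0.42). Eif5a2 rose at 30 weeks (1.52-fold, limma adjusted p = 0.00269) and over the mean of the 3 ages (0.47 ± 0.06, limma adjusted p = 0.000827). The second Eif5a probe, whose bases are 35% G and C and which is printed above, read -0.56, -0.39 and -0.61 in the means of the 3 ages. The second Eif5a2 probe read 0.22, 0.43 and 0.11. At 30 weeks both calls were kept after the correction for probe base composition (-0.47 and 0.61) and when any 1 array was left out.

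Eif6, found under the name Itgb4bp, had -0.49 and -0.30 at 4 weeks, -0.26, 0.00 and -0.14 at 12 weeks, and -0.57, -0.41 and -0.49 at 30 weeks. It fell at 4 weeks (-0.39 ± 0.09, limma adjusted p = 0.0161) and at 30 weeks (-0.49 ± 0.07, limma adjusted p = 0.00191), and 1 other probe had means of -0.48, -0.38 and -0.73 at the 3 ages while another, dim and read from a different accession, had -0.05, 0.07 and 0.15. The 4-week call was lost without replicate 1 of 4 weeks (-0.30, limma adjusted p = 0.279), with averaged probes, and after the correction for probe base composition (-0.23, limma adjusted p = 0.064). Eif1ad rose at 30 weeks (0.42 ± 0.11, limma adjusted p = 0.0177), although its second probe had a mean of -0.44 there, and the call was lost without replicate 1 or 3 of 30 weeks (0.36 to 0.43). Eif2d was not called at any age.

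Of the Argonautes, Ago1 had -0.06 and 0.02 at 4 weeks, 0.48, 0.20 and 0.30 at 12 weeks, and 0.93, 0.82 and 0.96 at 30 weeks. It rose 1.87-fold at 30 weeks (0.90 ± 0.07, limma adjusted p = 0.000645), but its other 2 probes had means of 0.00 and -0.01 there. Ago4 rose at 30 weeks (0.43 ± 0.07, limma adjusted p = 0.00248), with its other 4 probes between -0.18 and 0.44. Ago3 was called over the mean of the 3 ages only (0.36 ± 0.09, limma adjusted p = 0.0118), and not without replicate 2 of 4 weeks (0.33), and Ago2, the Argonaute that cleaves its targets, was not called. In a list of 10 genes of the small RNA pathway, which holds the 4 Argonautes, 5 rose and 0 fell at 30 weeks, where 20.7% of all genes rose. The 5 were Ago1, Ago4, Tnrc6b (0.95) and Tnrc6a (0.32), which bind Argonautes, and Dicer1 (0.42), which cuts small RNA precursors. With its probes averaged, Dicer1 was at -0.07 (limma adjusted p = 0.477).

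Differences between ages were tested directly. From 4 to 12 weeks 7 of the 32 ratios fell and 0 rose, where 5.61% of all genes fell and 1.37% rose (6.98% in either direction). The 7 genes were Eif5b (-0.92 ± 0.11), Eif2a (-0.87 ± 0.19), Eif1a (-0.80 ± 0.17), Eif2s1 (-0.78 ± 0.13), Eif3j1 (-0.78 ± 0.18), Eif2s2 (-0.75 ± 0.13) and Eif3a (-0.64 ± 0.10), with limma adjusted p between 0.00615 and 0.0396. In each of the 7, both arrays of 4 weeks lay above all 3 arrays of 12 weeks. The 7 were picked by this difference on the same arrays, so that adds no support. The share of all genes that did so was not counted. The 4-week arrays had their own slide and their own version of the scanner software, and the 12-week wild-type pools differed from those of 4 and 30 weeks in Xist and Ddx3y, so age, pool, slide and sex cannot be told apart in these differences. From 12 to 30 weeks 1 ratio rose, that of Ago1 (0.58 ± 0.10), and 0 fell, beside 0.32% and 0.456% of all genes (0.776% in either direction). Within the slide that holds all arrays of 12 weeks and replicate 1 of 30 weeks, the Ago1 difference was 0.60. It rests on 1 array of 30 weeks (0.93), so it cannot decide whether the ratio changed.

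The counts turned on single arrays. Without replicate 1 of 4 weeks, 4 of the 32 were called at 4 weeks (4 higher, 0 lower) and 0 between 4 and 12 weeks; over all genes the 4-week calls then numbered 499 in place of 4175. Leaving out replicate 2 of 12 weeks gave 8 calls at 12 weeks (7 higher, 1 lower), and leaving out replicate 1 or 3 of that age, either array of 4 weeks, or replicate 1 or 3 of 30 weeks gave 0, and replicate 2 of 30 weeks 1. With 1 array of 4 weeks left out, the other is assumed to vary like the arrays of the later ages. Leaving out replicate 1, 2 or 3 of 30 weeks gave 10, 11 and 10 calls at 30 weeks. The calls over all genes moved as well. At 30 weeks they then numbered 4124, 5371 and 3942 in place of 7186. At 12 weeks they numbered 1853 without replicate 2 of that age, and 18 and 131 without replicates 1 and 3, in place of 481. The mean of the 3 ages had 16 to 19 calls whichever array was left out.

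The ratios of these genes followed the base composition of their probes. Over all genes the ratio and the share of G and C in the probe correlated at -0.32 at 4 weeks, -0.28 at 12 weeks and -0.29 at 30 weeks, and over the 32 genes at -0.68, -0.57 and -0.59. These are descriptions across genes that share arrays and dyes. At 4 weeks the 10 genes that rose had probes with a median of 37.5% G and C and the 4 that fell had 52.5%, next to 38.3% and 45% for all genes that rose or fell. At 30 weeks the 8 that rose had 36.7% and the 10 that fell 48.3%. With each array's ratios corrected by a lowess on probe composition, 10 of the 32 were called at 4 weeks (9 higher, 1 lower) and 16 at 30 weeks (9 higher, 7 lower). Eif3e, Eif3a, Eif3j1, Eif2s2 and Eif5b then had 0.83, 0.83, 0.95, 0.92 and 0.97 at 4 weeks and all kept their calls there.

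**Figure D4:**
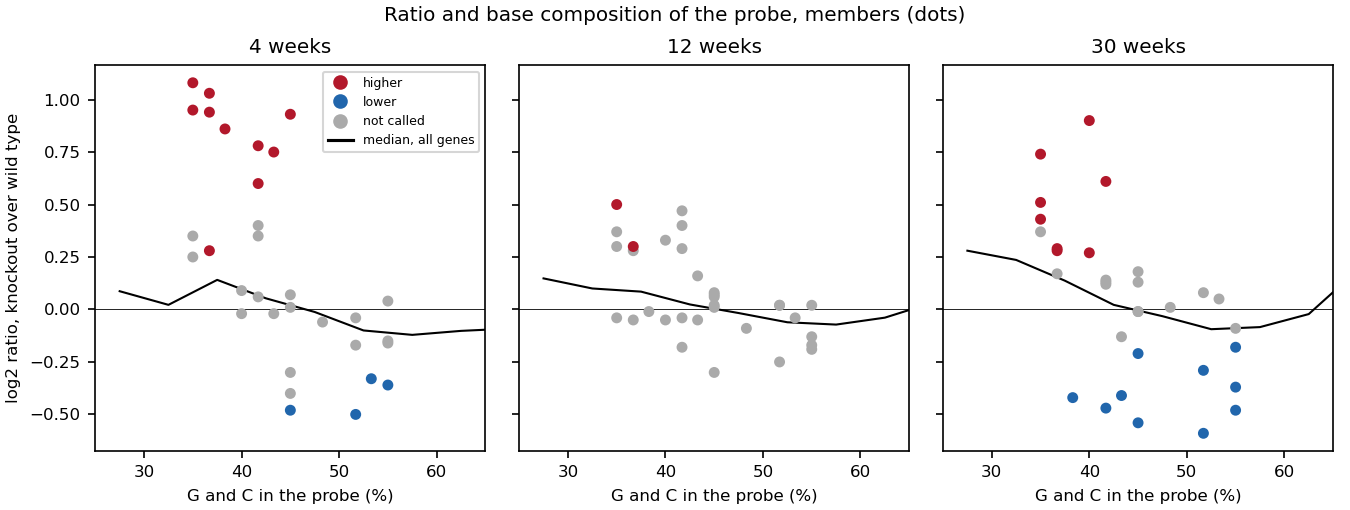
Log2 ratio of knockout over wild type (vertical) against the share of G and C in the gene's probe (horizontal, percent) for the 32 genes at 3 ages, coloured by call, with the median of all genes in bins of 5 percentage points (line). Genes called higher lie at 45% or less, and the line falls from left to right between 35% and 55%.

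Probes of 1 gene gave a further check that did not enter the choice of the brightest probe. Of the 36 other probes that passed the filter, for 21 genes, 30 had the sign of the brightest probe at 4 weeks and 5 the opposite sign. At 12 weeks 23 had the same and 13 the opposite sign, and at 30 weeks 19 and 15. For genes called at 4 weeks, 18 of 19 further probes shared its sign and 0 opposed it. For genes called at 30 weeks, 12 of 19 had the same sign and 6 the opposite. The 6 were probes of Eif3e, Eif3d, Eif2a, Eif2s1, Ago1 and Ago4. Those of Eif3d, Eif2a and Ago1 are listed under another transcript record than the brightest probe. Among the 36, an Eif1 probe and an Eif1a probe are placed on other chromosomes than the brightest probe of that gene. The Eif1a probe is among the further probes of genes called at 4 and 30 weeks, and had the same sign at both.

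**Figure D5:**
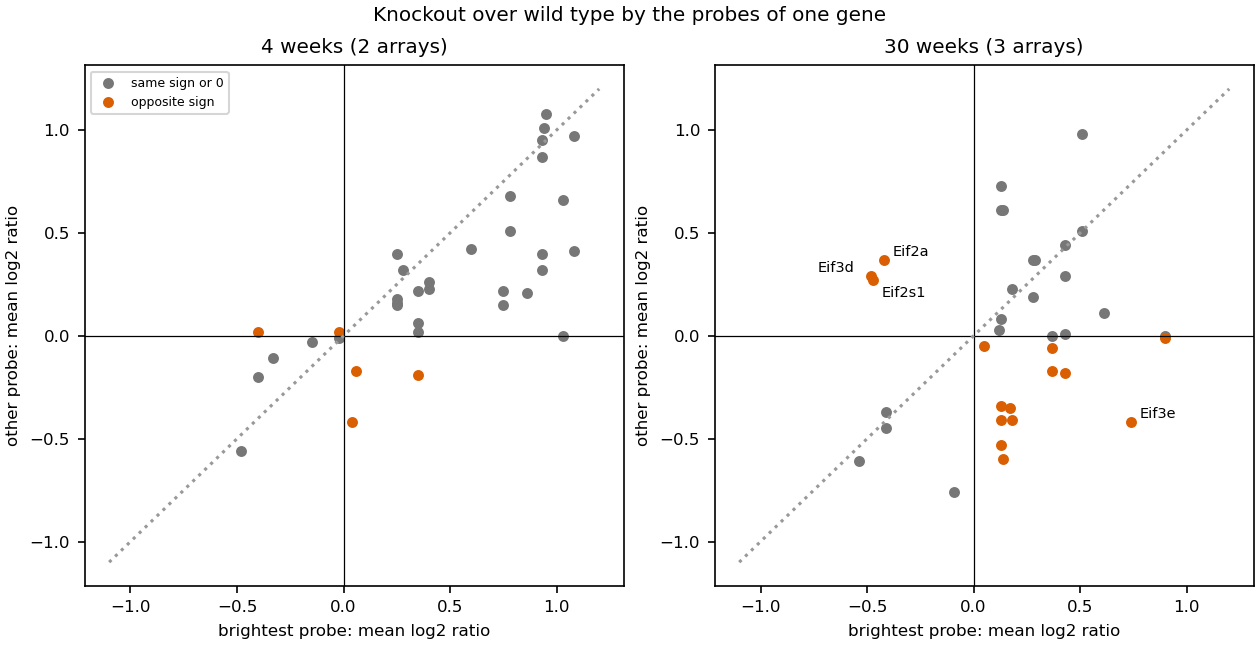
Mean log2 ratio of knockout over wild type of each gene's other probes (vertical) against that of its brightest probe (horizontal), at 4 weeks (left) and 30 weeks (right); the dotted line marks equal values and orange marks opposite signs. At 4 weeks 5 of 36 points are orange and at 30 weeks 15 are, 4 of which are named.

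Upstream sequences were read for the motif TTCG, the core that Deaf1 binds, on both strands (the other strand reads it as CGAA, and overlapping matches on both strands count as 2). Of 36 genes sought (the 32 and the 4 under older names), 29 had an entry in the RefSeq promoter table (GRCm38.p6), with 35 windows of the 250 bases before a transcript start, some of which overlap. The motif was in 62.9% of these windows and, 2 or more times, in 25.7%, while all 32851 windows of the table held it in 38.7% and 12.5%. By gene, 19 of the 29 had a match. The motif holds the bases CG, and no share among windows of like base composition was counted, so the difference is not read as particular to these genes. Among genes that rose, Eif2s2 had 6 matches and Eif5a2 3, and Eif3j1 had 0. Among genes that fell, the 6 windows of Eif5a had 0 to 3 and Eif2b5 had 0. Those of Eif2s2, with the most matches, of Eif2a and of Eif5a2 are shown 5′ to 3′ up to the base before the start, with matches in capitals. A match describes letters only and is no evidence of binding.
Eif2s2 (chr2:154892907-154893156, minus strand): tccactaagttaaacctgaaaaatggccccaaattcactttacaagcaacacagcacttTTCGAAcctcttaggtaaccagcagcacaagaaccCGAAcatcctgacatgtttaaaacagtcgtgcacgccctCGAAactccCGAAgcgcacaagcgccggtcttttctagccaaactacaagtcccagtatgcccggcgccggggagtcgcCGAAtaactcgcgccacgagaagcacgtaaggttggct
Eif2a (chr3:58525571-58525820, plus strand): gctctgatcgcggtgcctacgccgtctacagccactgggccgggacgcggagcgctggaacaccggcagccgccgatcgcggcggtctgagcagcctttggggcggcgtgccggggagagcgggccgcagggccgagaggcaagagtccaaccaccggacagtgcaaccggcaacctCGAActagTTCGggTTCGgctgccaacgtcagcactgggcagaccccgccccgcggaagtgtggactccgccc
Eif5a2 (chr3:28781027-28781276, plus strand): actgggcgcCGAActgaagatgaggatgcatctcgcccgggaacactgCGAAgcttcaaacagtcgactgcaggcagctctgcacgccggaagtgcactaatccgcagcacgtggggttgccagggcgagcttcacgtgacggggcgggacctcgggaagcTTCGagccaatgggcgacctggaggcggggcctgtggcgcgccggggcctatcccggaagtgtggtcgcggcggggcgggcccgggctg

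Genes that act on eIF2 were listed apart. Over all genes, 15.3% rose and 7.37% fell at 4 weeks, and 20.7% rose and 18.4% fell at 30 weeks, and the counts of the lists stand beside these shares. Of 37 calls of genes in the lists singled out for their small p, 16 were lost in at least 1 of 8 fits with an array left out. Of 8 eIF2 alpha kinases and phosphatase subunits, 4 rose and 0 fell at 4 weeks, and 1 rose and 4 fell at 30 weeks. Eif2ak2 (PKR), Eif2ak3 (PERK) and Eif2ak4 (GCN2), kinases activated by double-stranded RNA, unfolded protein and lack of amino acids, rose at 4 weeks by 0.51, 0.47 and 0.47, and Nck1, an adaptor that counters eIF2 phosphorylation, by 0.73. At 30 weeks Eif2ak2 fell by 0.31, Gcn1, the activator of GCN2, by 0.49, and Ppp1r15a (GADD34), the stress-induced phosphatase subunit, by 0.94 (limma adjusted p = 0.00193), while Nck1 rose by 0.45. The 4-week calls of Eif2ak2, Eif2ak3 and Eif2ak4 were lost without replicate 1 of that age, where Eif2ak4 was at 0.26. The 30-week call of Eif2ak2 was lost in 5 of 8 fits with 1 array left out (-0.38 to -0.25). Those of Nck1, Gcn1 and Ppp1r15a were kept in all 8. Among 16 genes turned on when eIF2 is phosphorylated, 0 rose and 2 fell at 4 weeks, and 1 rose and 3 fell at 30 weeks, so the share called was below that of all genes at both ages (22.7% and 39%). The median of these 16 was -0.23, 0.41 and -0.32 on the arrays of 30 weeks, with the high value on replicate 2, which stood apart in the acinar list. Atf4, the transcription factor at the head of that response, fell at both ages (-0.41 and -0.76, limma adjusted p = 0.0472 and 0.0014), and Ddit3 (CHOP) fell at 30 weeks (-0.62, limma adjusted p = 0.00341). Slc3a2, an amino acid transporter chain, fell by 0.47 at 4 weeks, and Vldlr rose by 0.92 at 30 weeks. The 4-week call of Atf4 was lost in 5 of 8 fits with 1 array left out (-0.52 to -0.30).

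Of 10 genes of eIF5A hypusination and polyamine metabolism, which supplies the hypusine side chain, 0 rose and 4 fell at 4 weeks and 1 rose and 3 fell at 30 weeks, when 39% of all genes were called. Dohh, which completes hypusine, fell at 4 weeks (-0.42, limma adjusted p = 0.0107), a call lost without replicate 1 of 4 weeks (-0.33). Oaz1 and Oaz2, antizymes that limit polyamine synthesis, fell at 4 weeks (-0.40 and -0.35) and at 30 weeks (-0.50 and -0.47). Both 4-week calls were lost without either array of that age, and that of Oaz2 also without replicate 1 or 3 of 30 weeks. Sat1, which acetylates polyamines for export, fell at 30 weeks (-0.56), and Amd1, which makes the donor for spermidine, rose (0.47). The Amd1 call was lost without any 1 of the 3 arrays of 30 weeks (0.45 to 0.49). Of 10 genes that work with eIF6 or on the large subunit, 3 rose and 1 fell at 4 weeks and 2 rose and 5 fell at 30 weeks, where Rack1, an eIF6-binding protein of the small subunit, rose by 0.80 and Wdr12, Gnl3 and Efl1 fell by 0.77, 0.50 and 0.47. Of 10 other initiation factors, 6 rose and 1 fell at 4 weeks, where 15.3% and 7.37% of all genes did, and 3 rose and 2 fell at 30 weeks (20.7% and 18.4%). At 4 weeks the list had Ddx3x, an X-linked RNA helicase, at 1.03, and Abce1, which recycles ribosomes, at 0.78. Mcts1, which works with Denr, was at 0.73, and Dhx29, a helicase on the small subunit, at 0.36. The calls of Ddx3x and Dhx29 were lost without replicate 1 of 4 weeks (0.86 and 0.30). Of 19 genes of the cap-binding complex eIF4F and its partners, 5 rose and 2 fell at 4 weeks (22.7% of all genes were called) and 4 rose and 8 fell at 30 weeks (39%), and Eif4g3, a scaffold of that complex, fell at all 3 ages (-0.97, -1.35 and -1.49).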

How the data were processed

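Pancreatic lymph nodes of Deaf1 knockout mice were measured on 8 arrays, each against a wild-type pool of the same age, with 2-colour Agilent arrays. Per the file headers, the deposited scanner files hold mean and background spot brightness (intensity) and processed signals (intensity) from Agilent Feature Extraction 9.5.3.1 (4 weeks) and 10.2.1.3 (other ages). They also hold, per the file headers, the log10 ratio of red over green and quality flags. The authors' deposited series matrix holds log2 ratios of red over green processed signal, uncentred, as comparison with the scanner values showed (medians -0.21 to 0.15).

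R 4.3.3 and limma 3.58.1 served for normalisation and tests. Sequence searches, counts of lost calls and figures were made in Python. Background correction of the mean signals used normexp (offset 50), followed by loess on each array (weight 0 for controls). Replicate spots were averaged, leaving out outlier flags. Of 41174 probes, 27471 passed the filter: every array of some age had to be well above background in 1 given channel. The brightest probe stood for a gene (18417 genes, 27 missing values). Between 46.9% and 71.5% of probes were well above background in knockout channels and between 37.3% and 62.7% in wild-type ones, and 0 spots were saturated. The number of arrays limits the precision. The fit had 1 mean per age over the 8 arrays, with 5 residual and 3.39 prior degrees of freedom, and was tested on simulated data. Probe genes came from accessions for 24375 probes, current symbols for 6301 and synonyms for 2426 (RefSeq, GRCm38.p6), and 8072 kept the file's name.

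Members and lists were chosen with earlier results of these data known. Any member may be named, with values on every array for Eif2s3x, Eif1ax, Eif5a, Eif6 and up to 8 called members per contrast with the largest change, and up to 4 genes per pathway list with the smallest p. Eif3i and Eif3m on every array, and other probes of a gene, were added after their values were seen. Other settings of background, normalisation, filter, probe choice, prior, weights, probe composition, slide, replicate block and left-out arrays were run.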

Additional observations from a re-analysis of the deposited data

Results flagged for a closer look

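The ratio of knockout over wild type differed between ages, by a test of the difference itself, for 8 of the 32 genes. From 4 to 12 weeks the log2 ratio changed by -0.92 for Eif5b, -0.87 for Eif2a, -0.80 for Eif1a, -0.78 for Eif2s1, -0.78 for Eif3j1, -0.75 for Eif2s2 and -0.64 for Eif3a. Without replicate 1 of 4 weeks none of the 7 passed in limma, when 1 of all genes did. From 12 to 30 weeks Ago1 changed by 0.58 at its brightest probe, while its other 2 probes had means of 0.06 and -0.03 at 12 weeks and 0.00 and -0.01 at 30 weeks. That call was lost in 7 of 8 fits with an array left out and in 9 of 13 other settings.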

How the results depend on the processing

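Counts of called genes among the 32 were 14 at 4 weeks, 2 at 12 weeks, 18 at 30 weeks, 17 over the mean of the 3 ages, 7 in 12 minus 4 weeks and 1 in 30 minus 12 weeks. Over the 13 other settings they ran from 10 to 19, 0 to 16, 15 to 20, 14 to 22, 1 to 15 and 0 to 8 in that order. With 1 array left out they ran from 4 to 18, 0 to 8, 10 to 20, 16 to 19, 0 to 8 and 0 to 10. The counts at 4 and 30 weeks and over the mean stayed within 1.5 times under each of the 13 settings. At 12 weeks the 2 calls became 0 with array weights, the series matrix, the arrays of that age alone, centred processed signals, the scanner's log ratio, and a trended robust prior, 1 with offset 10 or the correction for probe composition, 1 with averaged probes (a lower gene, where both calls had been higher), 4 with the strictest filter on dim probes and 16 with slide as a random block (correlation -0.259). With that block the calls over all genes went from 481 to 8980 at 12 weeks and from 1285 to 4482 in 12 minus 4 weeks. In 12 minus 4 weeks there were 4 calls with averaged probes, 1 with the arrays of the 2 ages alone and 15 with the slide block. In 30 minus 12 weeks there were 8 with array weights and 0 with the series matrix, averaged probes, offset 10, the 2 ages alone, centred processed signals, the scanner's log ratio or the trended prior. For this contrast slide was a fixed term in place of the random block. That set replicate 1 of 30 weeks alone against the arrays of 12 weeks. With replicate number as a block there were 11, 2, 15, 16, 4 and 0 calls; the numbers were not taken as pairs, since deviations of same-numbered arrays correlated between -0.08 and 0.24. Directions reversed with averaged probes for Eif2s3x at 30 weeks (-0.25) and over the mean (0.00), Eif1ad at 30 weeks (-0.01), Dicer1 at 30 weeks (-0.07) and Eif2s1 over the mean (0.18), and with the correction for probe composition for Eif3b over the mean (0.12). Single probes of Eif2s3x, Eif1ad and Eif2s1 differed in sign in these contrasts, and the average takes in the dimmer ones. At 30 weeks the Eif1ad probes read 0.42 and -0.44, and those of Eif2s3x that passed the filter 0.13, -0.53 and -0.34. Why the probes of a gene differed was not tested.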

Other observations

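Lists of factors that act after initiation were counted too. Of 12 elongation factor genes, 1 rose and 8 fell at 30 weeks (the 1 was Eef1a1, which brings tRNA to the ribosome, at 0.34 ± 0.07, limma adjusted p = 0.00558), with a median log2 ratio of knockout over wild type of -0.34, next to 0.03 over all genes, of which 20.7% rose and 18.4% fell. Eef2, the translocase, fell by 1.08 ± 0.16, Eef1g and Eef1b2, subunits of the factor that recharges eEF1A, by 0.77 ± 0.13 and 0.72 ± 0.12, and Gfm1, a mitochondrial elongation factor, by 0.43 ± 0.07 (SE, n = 3; limma adjusted p between 0.00176 and 0.00294). At 4 weeks 1 of the 12 rose and 2 fell, where 15.3% and 7.37% of all genes did. The list's median on single arrays was -0.13 and -0.16 at 4 weeks, -0.28, 0.05 and -0.07 at 12 weeks, and -0.27, -0.29 and -0.36 at 30 weeks. Of 9 termination and recycling factor genes, 3 rose and 0 fell at 4 weeks, where 22.7% of all genes were called, and 2 rose and 2 fell at 30 weeks, where 39% were.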
